A study of Mus musculus with 12 samples.

Results

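The TGF-beta ligand gene Tgfb1, its receptor genes Tgfbr1 and Tgfbr2, the SMAD genes Smad2, Smad3, Smad4 and Smad7, and the SMAD corepressor genes Ski, Skil and Tgif1 were followed through 12 RNA-Seq libraries of a mouse macrophage line, RAW 264.7. They were picked by name, as 10 of the 35865 genes to which the listed transcripts could be matched, and all 10 passed the filter on low counts that left 13906 genes for testing. Their values were summed from transcripts to genes and compared across the 4 treatment groups and across the title numbers 1 to 3.

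The cultures had all been given extracellular vesicles (EVs) for 48 h, at 3 µg of protein per ml, in medium with EV-depleted serum. These EVs came from the mouse endothelial line MS-1 and had been loaded by electroporation with 1 mimic each, of miR-222-3p, miR-183-5p or miR-142-5p. The ctrl-EVs carried cel-miR-67, a miRNA of a worm, according to the methods. Each of the 4 groups held 3 libraries, which the titles number 1 to 3. What a shared number stands for is not stated, nor whether libraries came from separate cultures, so p-values measure the spread between these libraries. Cells without EVs were not analysed here. In such bulk libraries a lower level can stand for fewer cells that express a gene or for less RNA per cell, which cannot be told apart.

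TGF-beta is a secreted cytokine that is released in a latent form. Once active, it binds the type II receptor, Tgfbr2, which phosphorylates the type I receptor, Tgfbr1. Tgfbr1 in turn phosphorylates Smad2 and Smad3, which join Smad4 and act on genes in the nucleus. Smad7 blocks the active receptor, and Ski, Skil and Tgif1 hold SMAD-bound genes down. In macrophages TGF-beta is best known for restraining inflammatory genes and for its part in wound repair.

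The delivered miRNAs recognise target mRNAs mainly through their seed, bases 2 to 8, so the seeds and their matches in the 3′ UTRs of the 10 genes are shown first. Mature sequences are from RefSeq, with the seed in capitals.
miR-142-5p: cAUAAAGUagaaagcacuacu
miR-183-5p: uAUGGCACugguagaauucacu
miR-222-3p: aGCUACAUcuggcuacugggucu
The 3 seeds differ, so each miRNA has matches of its own, on the mRNA strand the reverse complement of bases 2 to 8. In the most abundant coding transcript of each gene, a 7-nt match was found in 3 of the 10 genes, namely Tgfbr2, Skil and Tgfbr1. These sites follow, 5′ to 3′ on the mRNA strand and with the match in capitals (GRCm38).
Tgfbr2, miR-142-5p, chr9:116090062-116090088, minus strand: taacgtttgcACTTTATtaatgcctgt
Skil, miR-183-5p, chr3:31120479-31120505, plus strand: atgaaatgatGTGCCATcgttttctgt
Skil, miR-183-5p, chr3:31120936-31120962, plus strand: ggaagctcctGTGCCATcaaggaggag
Tgfbr1, miR-222-3p, chr4:47411964-47411990, plus strand: ttcacatgttATGTAGCtgtaagtatt
Tgfbr1, miR-222-3p, chr4:47413839-47413865, plus strand: ttaagtggccATGTAGCcatttttgta
A match of this length is frequent. Among 12562 genes with an annotated 3′ UTR, 9.42% held one for miR-222-3p, 8.92% for miR-183-5p and 14.0% for miR-142-5p. A match is a run of letters and was not measured as a binding site.

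The libraries held 16294611 to 22974853 estimated counts. Those of title number 2 were the shallowest, at 16294611 to 18927524 counts, and had the highest share of mitochondrial counts, at 4.85% to 5.38% against 3.45% to 4.59% in the other 8. Macrophage markers were abundant throughout, with 11 of 12 at a median of 1 TPM or more and a summed level of 1630 to 1772 TPM in number 2, 1834 to 1994 in number 1 and 2218 to 2291 in number 3. Of 12 endothelial markers 9 had a median under 1 TPM, with Cldn5 at 0 in every library, and their summed level of 15.3 to 34.3 TPM came mostly from Egfl7. It was 15.3 to 18.3 TPM in number 2, 25.8 to 29.7 in number 1 and 26.3 to 34.3 in number 3. All 6 fibroblast markers had a median under 1 TPM. The part of depth, mitochondrial share or marker levels in the differences between title numbers given below was not tested.

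The 10 genes lie on 6 chromosomes (GRCm38). Tgfb1 is at chr7:25687002-25705077, Tgfbr1 at chr4:47353222-47414931, Tgfbr2 at chr9:116084293-116175360 and Smad3 at chr9:63646767-63757994. Smad2 (chr18:76241580-76310963), Smad4 (chr18:73639009-73703780) and Smad7 (chr18:75367529-75395935) share a chromosome. Ski is at chr4:155154075-155222592, Skil at chr3:31095058-31122577 and Tgif1 at chr17:70844205-70853546.

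To compare levels between genes, TPM, the share of transcripts after allowing for their length, were used. Tgif1 was the most abundant, at 78.2 ± 7.63 TPM (SD, n = 12), and was above Smad4 in 12 of 12 libraries. Smad4 followed at 42.7 ± 5.92 TPM, Smad2 at 35.6 ± 5.26 and Tgfb1 at 33.8 ± 5.09. Smad3 stood at 30.7 ± 3.88 TPM, Tgfbr2 at 25.4 ± 6.46, Skil at 24.4 ± 4.57, Tgfbr1 at 20.5 ± 5.13 and Ski at 18.6 ± 3.55. From Smad4 down to Ski, each gene's range over the 12 libraries overlapped that of the next. Within the same library, each was above the next in 8 to 10 of the 12 libraries. Smad3 over Tgfbr2 and Tgfbr1 over Ski reached 10. The order of neighbours was thus not the same in every library. Smad7, the inhibitory SMAD, was far below all others at 1.38 ± 0.784 TPM, with a range of 0.665 to 3.08 that did not reach the lowest value of Ski.

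**Figure D1:**
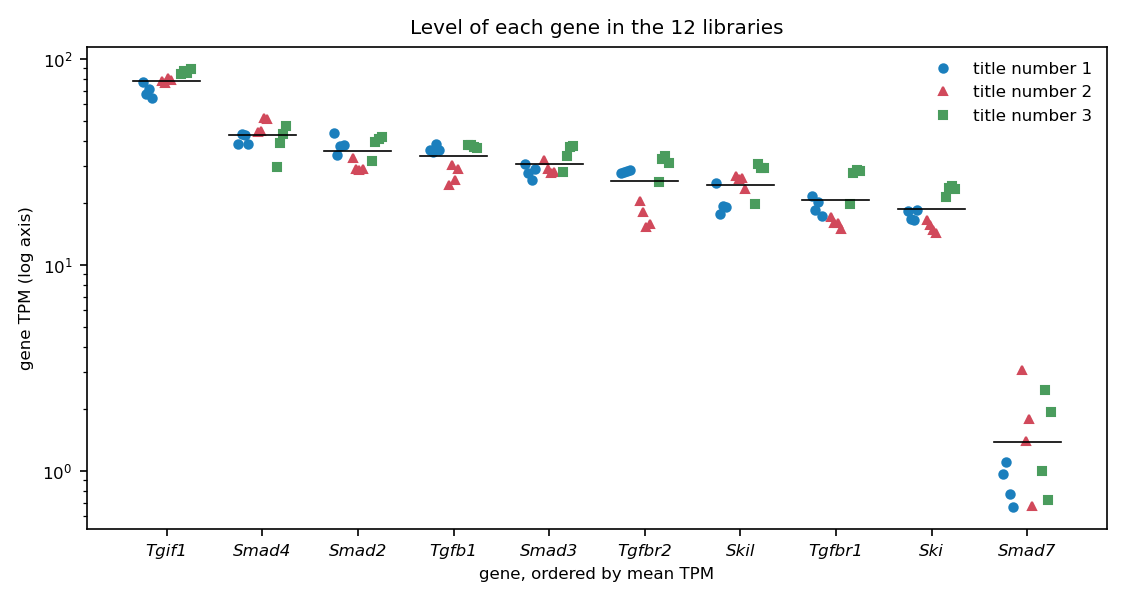
TPM of each of the 10 genes (log axis) in the 12 libraries, with symbols by title number and a line at the mean. Tgif1 lies above and Smad7 below the ranges of the 8 genes between them, from Smad4 to Ski, which overlap from one to the next.

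None of the 10 genes changed with a treatment at the threshold used. The measure used was normalized counts, which are estimated counts divided by size factors and by the length of each gene's expressed transcripts. DESeq2 called 0 of 10 in each comparison (Wald test, Benjamini-Hochberg adjusted p under 0.05), against 0.00719% of all tested genes (1 gene, lower) for miR-142-5p-EVs and 0% for each other group and for the 9 miR-EV libraries together. At an unadjusted p under 0.05 the count without a block was also 0, and edgeR's quasi-likelihood test called 0 as well. With the title number as a block, since the numbers pair the libraries, 0 were called. At an unadjusted p under 0.05, 2 of the 30 values of the blocked fit passed, both of Smad4 (in the miR-222-3p-EV and miR-183-5p-EV comparisons), as did Smad4 over all miR-EVs and for any difference among the groups. Smad7 was given no adjusted p there, other than for miR-142-5p-EVs and for any difference. Of all tested genes, 0.0575% were then called for miR-142-5p-EVs (0.0288% higher and 0.0288% lower), 0.0647% in the miR-222-3p-EV comparison (0.0431% and 0.0216%), 0.41% in that of miR-183-5p-EVs (0.316% and 0.0935%) and 1.6% over all miR-EVs (1.04% and 0.568%). Any difference among the 4 groups was called for 0.00719% without the block and 0.0863% with it, again with 0 of the 10.

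Tgfb1 was at 756 ± 152 normalized counts in ctrl-EVs (SD, n = 3), 771 ± 13.5 in miR-142-5p-EVs, 761 ± 88.6 in miR-183-5p-EVs and 768 ± 43.7 in miR-222-3p-EVs. Its ctrl-EVs values were 805, 585 and 877 for numbers 1, 2 and 3. Those of miR-142-5p-EVs were 767, 760.1 and 786, those of miR-183-5p-EVs 853, 677 and 753, and those of miR-222-3p-EVs 818, 741 and 744. The range of ctrl-EVs enclosed all 9 others. Over all miR-EVs the log2 fold change was 0.02 ± 0.12 (SE), with a 95% interval of −0.22 to 0.26.

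For the receptors, the values of interest are those of the groups whose miRNA has a match. Tgfbr2, with a miR-142-5p match, was at 1985, 1459 and 2144 normalized counts in miR-142-5p-EVs 1, 2 and 3 and at 1997, 1589 and 1859 in ctrl-EVs, a log2 fold change of 0.04 ± 0.27 with a 95% interval of −0.49 to 0.57. Tgfbr1, with its pair of miR-222-3p matches, was at 1237, 1197 and 1834 in miR-222-3p-EVs and 1528, 1304 and 1433 in ctrl-EVs. The miR-222-3p-EV library was lower in numbers 1 and 2 and higher in number 3, and the log2 fold change was 0.002 ± 0.24 (−0.46 to 0.47). The corepressor Skil, with its pair of miR-183-5p matches, was at 1498, 2424 and 2094 in miR-183-5p-EVs and at 1948, 2282 and 1589 in ctrl-EVs. Here too the direction differed between numbers, and the log2 fold change was 0.05 ± 0.27 (−0.49 to 0.59). The groups overlapped in all 3 cases, and each interval reached well past 0 on both sides.

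Smad4, the partner that all receptor-activated SMADs share, had the most regular direction in normalized counts. Its ctrl-EVs values were 1423, 1761 and 1138 normalized counts for numbers 1, 2 and 3. They were 1553, 1846 and 1314 in miR-142-5p-EVs, 1548, 2242 and 1445 in miR-183-5p-EVs and 1443, 2145 and 1582 in miR-222-3p-EVs, higher than the ctrl-EVs library of the same number in 9 of 9 cases. The 9 comparisons share 3 ctrl-EVs libraries, and how many other genes were higher in all 9 is not given. Scaled only to the library total (CPM), ctrl-EVs 2 was at 86.5. At 85.7 and 85.3 CPM, miR-142-5p-EVs 2 and miR-222-3p-EVs 2 were below it, and the other miR-EV libraries stayed above their ctrl-EVs library. Mean effective lengths were 2480 nt in ctrl-EVs 2, 2390 in miR-142-5p-EVs 2 and 2092 in miR-222-3p-EVs 2. The 9 of 9 thus held in normalized counts and not in CPM. These measures differ in the scaling to depth as well as in the length offset, and the part of each was not tested. The log2 fold change was 0.13 ± 0.26, 0.28 ± 0.26 and 0.26 ± 0.26, and 0.22 ± 0.19 over all miR-EVs (−0.16 to 0.60). With the title number as a block the pooled value was 0.22 ± 0.08, with an unadjusted p of 0.0073 by DESeq2's Wald test and an adjusted p of 0.128, so it did not pass the correction. Smad4 overlaps AC132418.2 on the other strand, another tested gene, and whether the counting used the strand is not stated.

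Smad7 had few counts and a wide spread. It was at 35.6, 123 and 37.6 normalized counts in ctrl-EVs 1, 2 and 3, at 39.5, 57.2 and 83.2 in miR-142-5p-EVs, at 28.0, 77.1 and 24.03 in miR-183-5p-EVs and at 24.8, 28.5 and 64.6 in miR-222-3p-EVs. The 123 and 37.6 of ctrl-EVs 2 and 3 came from 59 and 64 estimated counts, at mean effective lengths of 1418 and 4080 nt. Part of the spread thus comes with the length offset. The groups overlapped, and the pooled log2 fold change was −0.45 ± 0.50 (−1.43 to 0.53). For the 8 genes other than Smad4 and Smad7 the 24 log2 fold changes against ctrl-EVs lay between −0.13 and 0.11, each with an SE of 0.14 to 0.27.

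Within a title number, the ctrl-EVs library often lay to one side of the 3 miR-EV libraries, but the side changed from number to number. In number 1 all 3 miR-EV libraries were below ctrl-EVs for 5 genes (Tgfbr1, Smad2, Smad3, Skil and Tgif1) and above for 1 (Smad4), where 32.1% and 32.5% of all tested genes did the same. In number 2 they were below for 5 (Tgfbr2, Smad2, Smad3, Smad7 and Ski) and above for 3 (Tgfb1, Smad4 and Tgif1), against 26.5% and 29.2%. In number 3 they were above for 6 (Tgfbr1, Tgfbr2, Smad2, Smad3, Smad4 and Skil) and below for 3 (Tgfb1, Ski and Tgif1), against 32.96% and 37.6%. Skil was at 0.70 to 0.77 times the ctrl-EVs level in number 1 and at 1.32 to 1.40 times in number 3. Tgfbr1 was at 0.81 to 0.92 times in number 1 and 1.26 to 1.29 times in number 3.

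**Figure D2:**
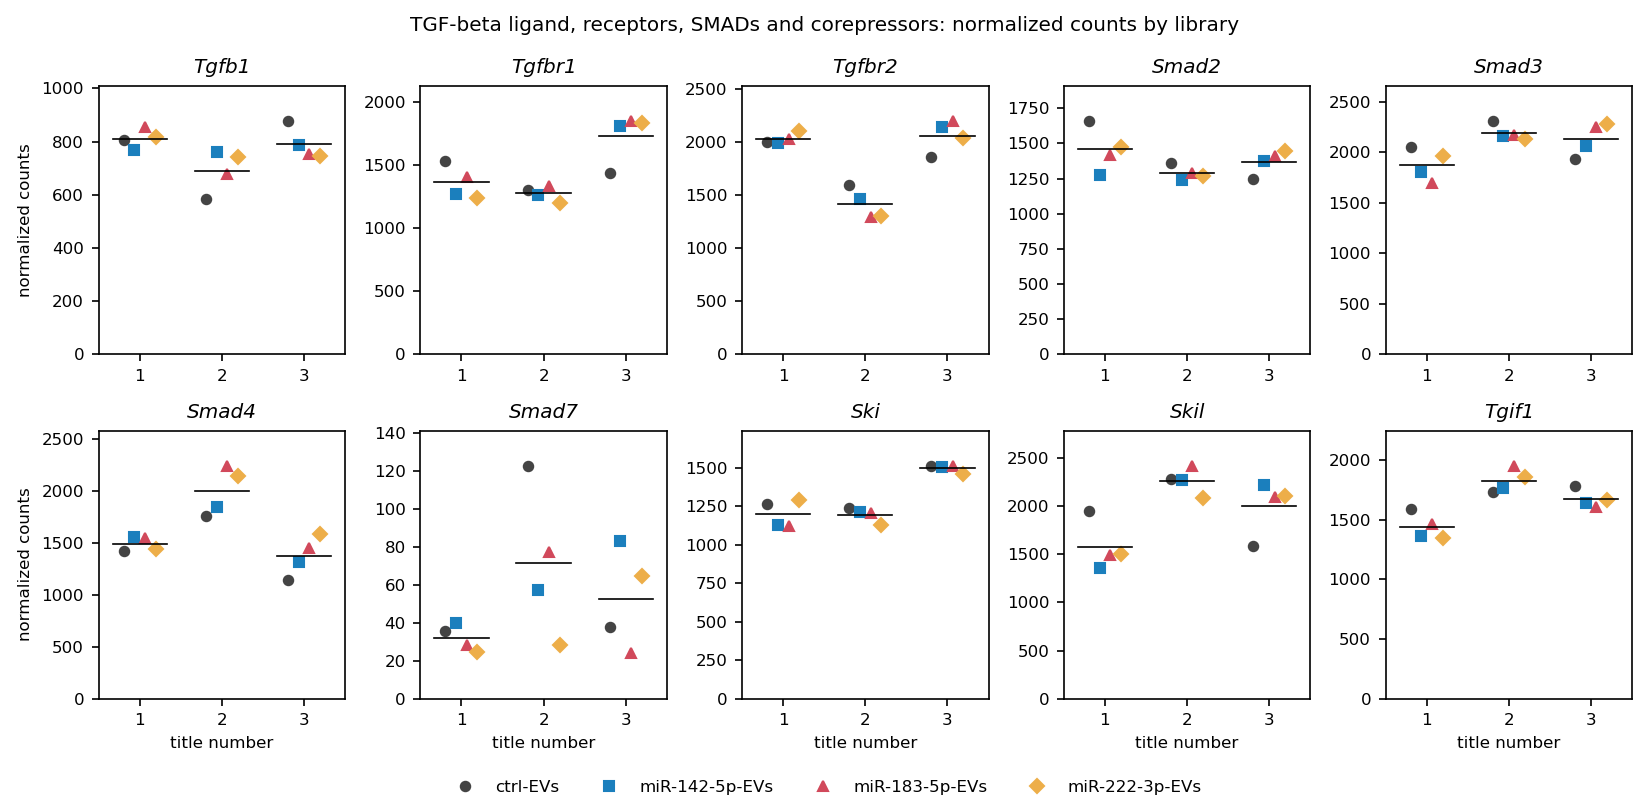
Normalized counts (axes from 0) of each of the 10 genes by title number, with 1 symbol for each group's library and a line at the mean of the 4 libraries. Tgfbr2 is lowest and Smad4 highest in number 2, Ski is highest in number 3, and the ctrl-EVs library of Smad4 is the lowest in each number.

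More of the 10 genes passed the test between title numbers than between treatments. A likelihood ratio test of the title number, in a model with the treatment groups (DESeq2), called 8 of the 10, all but Tgfb1 (adjusted p = 0.113) and Smad2 (adjusted p = 0.229). This share has to be read against the 69.4% of all tested genes that the same test called. By edgeR's quasi-likelihood test 6 of the 10 were called, against 70.2%, and Smad3 and Smad7 were not.

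Among the receptors, Tgfbr2 fell in number 2. It was at 1997, 1985, 2028 and 2101 normalized counts in number 1 (in the order ctrl-EVs, then EVs with miR-142-5p, with miR-183-5p and with miR-222-3p, kept from here on), at 1589, 1459, 1289.8 and 1299 in number 2, and at 1859, 2144, 2196 and 2036 in number 3. All 4 libraries of number 2 were below the other 8. The log2 fold change was −0.53 ± 0.10 for number 2 against 1 (adjusted p = 1.95e-07, DESeq2) and 0.55 ± 0.10 for number 3 against 2 (adjusted p = 5.04e-08). Its partner Tgfbr1 followed another course, with 1528, 1272, 1407 and 1237 in number 1, 1304, 1259, 1332 and 1197 in number 2 and 1433, 1807, 1847 and 1834 in number 3. It was higher in number 3 than in number 1 by 0.35 ± 0.11 (adjusted p = 0.00776) and than in number 2 by 0.44 ± 0.11 (adjusted p = 9.86e-05). Within number 3 the ctrl-EVs library stood below the 3 miR-EV libraries. Thus the type II receptor differed between numbers 1 and 2 and the type I receptor did not pass the test there (−0.10 ± 0.11, adjusted p = 0.452). The difference between the 2 genes was not tested.

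The ligand Tgfb1 was at 805, 767, 853 and 818 normalized counts in number 1, 585, 760.1, 677 and 741 in number 2 and 877, 786, 753 and 744 in number 3. Every library of number 2 was below every library of number 1, but the log2 fold change of −0.23 ± 0.11 did not pass the test (adjusted p = 0.0619). It passed without ctrl-EVs 3 or miR-142-5p-EVs 2, the lowest adjusted p being 0.0311. It also passed with TMM scaling (adjusted p = 0.0456), with no treatment term (0.0282) and without the length offset (6.58e-04).

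Of the common and receptor-activated SMADs, Smad4 and Smad3 were called higher in number 2 than in 1 and Smad2 was not called, and the differences between these genes were not tested. Smad4 was at 1423 to 1553 normalized counts in number 1, 1761 to 2242 in number 2 and 1138 to 1582 in number 3. The 4 libraries of number 2 were above all others, by 0.41 ± 0.09 on the log2 scale over number 1 (adjusted p = 2.28e-05), and number 3 was below number 2 by −0.55 ± 0.09 (adjusted p = 1.30e-08). Smad3 was at 1695 to 2050.4 in number 1, 2135 to 2309 in number 2 and 1931 to 2275 in number 3, and was higher in number 2 than in number 1 by 0.23 ± 0.09 (adjusted p = 0.0234). Smad2, the other substrate of the receptor, was at 1275 to 1660.2, 1242 to 1358 and 1248 to 1443, with overlapping numbers and no call.

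Smad7 was at 24.8 to 39.5 normalized counts in number 1, 28.5 to 123 in number 2 and 24.03 to 83.2 in number 3. Its log2 fold change of 1.12 ± 0.41 for number 2 against 1 was called (adjusted p = 0.0141), although the numbers overlapped. The length offset enters these values too.

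Of the corepressors, Skil and Tgif1 were higher in numbers 2 and 3 than in number 1, and Ski was higher in number 3 only. Skil was at 1355 to 1948 normalized counts in number 1, 2091 to 2424 in number 2 and 1589 to 2225 in number 3. It rose by 0.52 ± 0.13 in number 2 (adjusted p = 1.71e-04) and by 0.35 ± 0.13 in number 3 (adjusted p = 0.0360), both against number 1. Tgif1 was at 1342 to 1586, 1732 to 1954 and 1606 to 1780.2, a rise of 0.35 ± 0.08 (adjusted p = 1.19e-04) and of 0.22 ± 0.08 (adjusted p = 0.0391). Ski was at 1124 to 1288, 1131 to 1235 and 1462 to 1514. Its 4 libraries of number 3 were above the other 8, by 0.32 ± 0.08 over number 1 (adjusted p = 0.00112) and 0.32 ± 0.08 over number 2 (adjusted p = 2.52e-04).

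In number 2 against 1, 6 of 10 genes were called, against 57.9% of all tested genes. Of these, 5 rose, against 28% of all genes, and 1 fell, against 29.9%. In number 3 against 1, 4 of 10 were called, against 23.4%, and all 4 rose, against 10.5%. In number 3 against 2, 4 of 10 were called, against 61.8%, of which 3 rose and 1 fell, against 31% and 30.7%. The median log2 fold change of the 10 was 0.11, 0.20 and 0.02 in these comparisons, beside 0.01, 0.01 and −0.01 over all tested genes. The 4 libraries of one number did not overlap with those of the other for 6, 2 and 4 of the 10 genes, against 53.2%, 25.2% and 56.1%.

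The calls on Tgfbr2, Smad4, Skil and Tgif1 in number 2 against 1, on Ski in number 3 against 1 and all 4 in number 3 against 2 were kept when any 1 of the 12 libraries was left out. That on Smad7 was lost without ctrl-EVs 2 or miR-183-5p-EVs 2 (adjusted p up to 0.159), and that on Smad3 without 6 of the 12 libraries (up to 0.162). In number 3 against 1, edgeR did not call Skil. Here the call on Tgfbr1 was lost without miR-142-5p-EVs 1 or 3 or miR-222-3p-EVs 1 or 3 (up to 0.0953), that on Skil without any of the 6 miR-EV libraries of numbers 1 and 3 (up to 0.239), and that on Tgif1 without 9 of the 12 (up to 0.228).

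**Figure D3:**
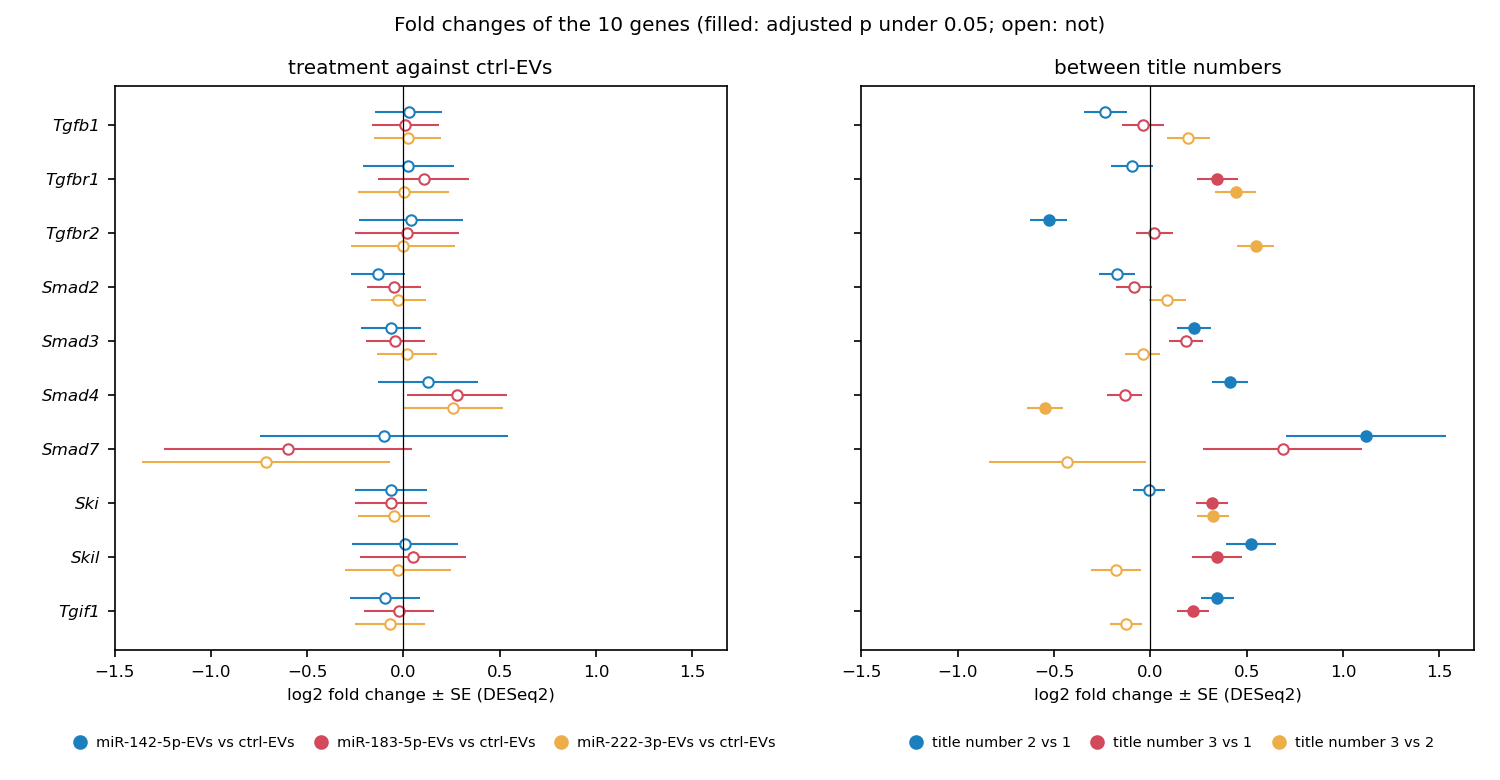
Log2 fold change ± SE (DESeq2) of the 10 genes against ctrl-EVs (left) and between title numbers (right), filled where the adjusted p is under 0.05. All 30 treatment values are open, while 14 of the 30 values between numbers are filled, among them Tgfbr2 at −0.53 and Smad4 at 0.41 for number 2 against 1.

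The estimated share of each transcript in its gene's TPM also differed between numbers, and these shares are given as a description with no test. How often transcripts of other genes set a number apart is not given. The clearest cases were Skil and Smad2. Skil-201 and Skil-204 are nearly full-length coding transcripts of 6717 and 6578 nt, each with 7 exons, on chr3. They differ in where exon 4 ends, at position 31113640 in Skil-201 and 31113502 in Skil-204, so that Skil-201 has 138 nt, or 46 codons, more in its coding sequence. Besides these 138 nt, the sequences across the junction from exon 4 (lower case) to exon 5 (capitals) tell them apart.
Skil-201: acagttgtttagATTCATCAATCT
Skil-204: aggcagagacaaATTCATCAATCT
Skil-201 took 28.1%, 26.1%, 42.4% and 35.2% of Skil's TPM in the number 2 libraries, in the same order of groups. It took at most 7.22% in number 1 and at most 6.75e-04% in number 3. Skil-204 took the opposite course, at 32.4% to 47.2% in number 2 against 62.2% to 70.2% in number 1 and 63.2% to 87.3% in number 3. In both cases the 4 libraries of number 2 lay apart from the other 8. Within number 3, the ctrl-EVs library was the highest for Skil-204, at 87.3%.

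Skil-203, a shorter annotated transcript, holds the same long exon that is exon 4 of Skil-201, at another place in its order of exons. It took 10.47% to 28.0% over all libraries and did not set number 2 apart. Over both, transcripts with the long form of this exon made up 50.1%, 50.3%, 65.0% and 50.8% of Skil's TPM in number 2. They made up 24.5% to 35.2% in number 1 and 10.47% to 22.0% in number 3. Those with its short form made up 32.4% to 47.2% in number 2, 62.2% to 70.2% in number 1 and 75.0% to 87.3% in number 3. The rise of Skil in number 2 thus went with a larger share of the longer coding form, whereas in number 3 that share was the lowest.

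Smad2-205, of 8089 nt, has a 3′ UTR of 6233 nt, while Smad2-201, of 2410 nt, has one of 564 nt and the same coding length of 1404 nt. Smad2-205 took 23.9% to 32.2% of Smad2's TPM in number 2, 10.3% to 14.3% in number 1 and 9.62% to 11.9% in number 3. Smad2-201 took 17.5% to 34.3% in number 2, 34.7% to 47.6% in number 1 and 41.1% to 73.6% in number 3. The 73.6% was that of the ctrl-EVs library. This shift bears on the gene's value: the log2 fold change of Smad2 for number 2 against 1 was −0.17 ± 0.09 with the length offset, but 0.43 without it (adjusted p = 6.41e-07), so no direction can be given for Smad2. Smad2-205 holds a match for miR-142-5p and one for miR-183-5p that Smad2-201 lacks.

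For the other genes the share of the most abundant transcript did not set 1 number apart. Tgfb1-201, the only Tgfb1 transcript annotated as protein coding, took 57.5% to 84.3% of the gene's TPM. Tgfbr2-201 took 53.8% to 69.1% and Tgfbr2-202, with 1 more coding exon and a 3′ UTR of 6085 nt, the rest. Both hold the miR-142-5p match, and Tgfbr2-202 also holds a match for miR-183-5p. Smad3-201 took 83.9% to 99.0%. For Ski, 37.5% to 70.0% was assigned to Ski-203, which is annotated as noncoding and shares its 3′ end with the coding transcripts. Smad7-201 ranged from 27.3% to all of the gene's TPM, and at Smad7's level such a share rests on few counts. Tgif1-201 took 46.5% to 59.2%. Less abundant coding transcripts of Tgif1 did set numbers apart. Tgif1-207 took 9.71% to 12.3% in number 2, 5.46% to 9.65% in number 1 and 5.57% to 7.47% in number 3. Tgif1-209 took 7.26% to 9.81% in number 3 and at most 7.14% in the other numbers.

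Of the 4 transcripts of the 10 genes that are annotated as retained introns, 3 had a higher share in every library of number 2 than in any other. Tgif1-212 took 9.39% to 12.8% of Tgif1's TPM in number 2, 6.08% to 8.31% in number 1 and 4.08% to 6.08% in number 3. Skil-206 took 1.51% to 2.64%, 0.224% to 0.996% and 0.197% to 0.830%, and Tgfb1-204 took 2.12% to 3.17%, 0.289% to 1.08% and 0.655% to 1.11%. The other, Tgfb1-203, did not set a number apart. How often retained introns of other genes set number 2 apart is not given, so this is not shown as particular to these genes. The part of unspliced RNA in the differences between numbers was not tested.

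**Figure D4:**
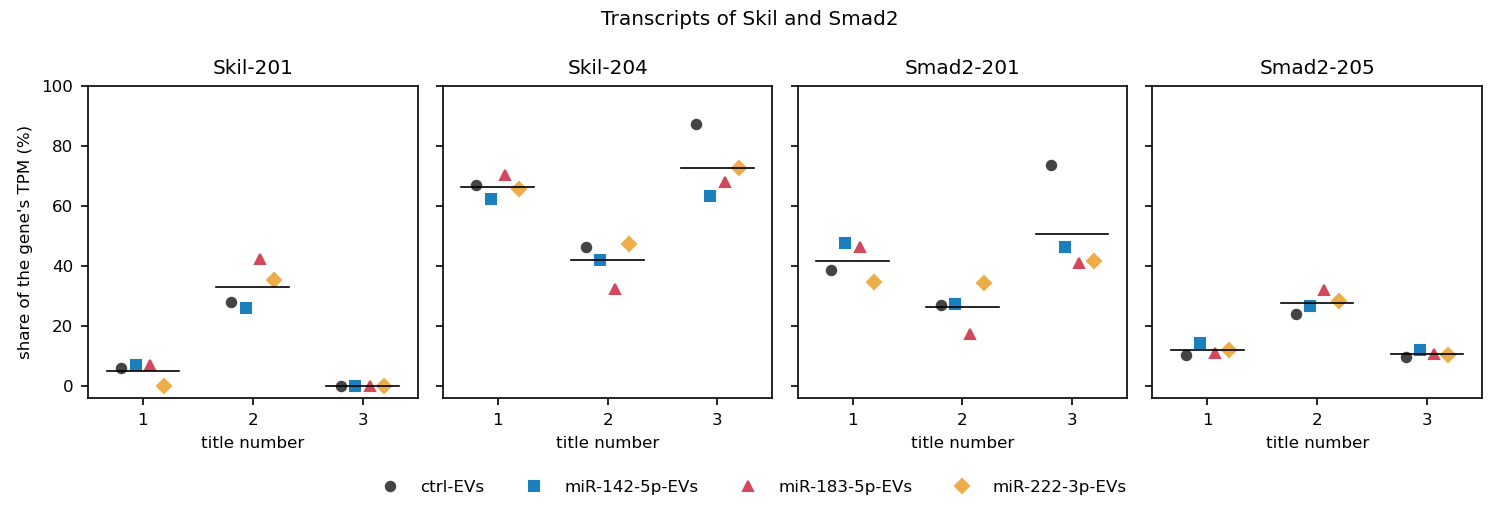
Share (%) of the gene's TPM taken by Skil-201, Skil-204, Smad2-205 and Smad2-201 in each library, by title number, with a line at the mean of 4. In number 2, Skil-201 and Smad2-205 are above and Skil-204 and Smad2-201 below every other library.

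Genes that act before or after these 10 were summarised from 5 lists of the pathway with 71 genes, of which 58 were tested. None of the 58 was called against ctrl-EVs by DESeq2 without a block, in any group or over all miR-EVs, and at an unadjusted p under 0.05 the counts were 1, 1, 1 and 2. With the title number as a block, 3 of 58 were called over all miR-EVs, against 1.6% of all genes, and all 3 rose. Acvr2b, a receptor for activins, was at 131, 329.6 and 70.1 normalized counts in ctrl-EVs 1, 2 and 3. It was at 189, 451 and 142 in miR-142-5p-EVs, at 166, 511 and 121 in miR-183-5p-EVs and at 197, 402 and 141 in miR-222-3p-EVs. All 9 were above the ctrl-EVs library of the same number. These comparisons share 3 ctrl-EVs libraries, and the share of all tested genes that did the same is not given. The blocked log2 fold change was 0.60 ± 0.13 (adjusted p = 0.00207, DESeq2) and was called whichever library was left out. Without the block its adjusted p was 0.9998 and by edgeR with the block 0.139, and with the block but no length offset the log2 fold change was 0.32 (adjusted p = 0.193).

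Bhlhe40, a transcriptional repressor, and Ncor1, a nuclear corepressor, were close to the threshold in the same fit, at 0.27 ± 0.08 (adjusted p = 0.0479) and 0.25 ± 0.08 (adjusted p = 0.0497). Each call was lost without 9 of the 12 libraries, 1 at a time, and by edgeR with the block (adjusted p = 0.207 and 0.215).

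Between title numbers, 33 of the 58 were called in number 2 against 1 (21 higher), 13 in number 3 against 1 (5 higher) and 40 in number 3 against 2 (14 higher), shares to be read against the 57.9%, 23.4% and 61.8% given above. Of 6 tested genes that depend on TGF-beta in microglia, the macrophages of the brain, 4 fell and 0 rose in number 2 against 1, where 29.9% of all tested genes fell and 28% rose. In number 3 against 1, 0 rose and 1 fell (10.5% and 12.9% of all tested genes), and in number 3 against 2, 4 rose and 1 fell (31% and 30.7%). Among them P2ry12, a receptor for ADP, was at 174, 185, 163 and 166 normalized counts in number 1, at 51.1, 45.0, 35.8 and 37.5 in number 2 and at 178, 166, 205 and 159 in number 3. It was thus 4.07-fold lower in number 2 than in 1 (log2 fold change −2.03 ± 0.20, adjusted p = 8.15e-22). P2ry13, a related ADP receptor, was at 64.2 to 105, 1.26 to 9.68 and 74.1 to 114, a log2 fold change of −3.99 ± 0.46 (adjusted p = 7.82e-17) that rests on fewer than 10 normalized counts in each library of number 2.

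Of 13 tested TGF-beta-induced genes, 4 rose and 0 fell in number 2 against 1 (28% and 29.9% of all tested genes), 1 rose and 4 fell in number 3 against 1 (10.5% and 12.9%), and 2 rose and 8 fell in number 3 against 2 (31% and 30.7%).

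Of the 21 tested SMADs and SMAD regulators, 11 rose and 3 fell in number 2 against 1, 2 rose and 0 fell in number 3 against 1, and 4 rose and 9 fell in number 3 against 2. These and the counts of the 2 lists that follow are to be read against the same shares of all tested genes, 28% and 29.9%, 10.5% and 12.9%, and 31% and 30.7%, and several lie near them. Zfyve9, which holds Smad2 and Smad3 at endosomes near the receptor, was at 547 to 702, 176 to 271 and 513 to 578 normalized counts and fell by 1.46 on the log2 scale in number 2 against 1 (SE 0.14, adjusted p = 1.82e-24). Of 10 tested ligands and latency genes, 3 rose and 2 fell, 0 rose and 1 fell, and 1 rose and 5 fell. The 1 gene in the second comparison was Tgfb3, another TGF-beta ligand, at 31.1 to 88.3, 48.4 to 71.8 and 19.0 to 33.6 (−1.36 ± 0.30, adjusted p = 9.59e-05). Of 8 tested receptors and co-receptors, 3 rose and 3 fell, 2 rose and 2 fell, and 3 rose and 3 fell. Cx3cr1, the fractalkine receptor and another of the microglial genes, was at 33.5, 148, 139 and 211 in number 1 and at 29.2 to 51.4 in number 3 (−1.37 ± 0.35, adjusted p = 8.43e-04), with its ctrl-EVs library of number 1 within the range of number 3.

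**Figure D5:**
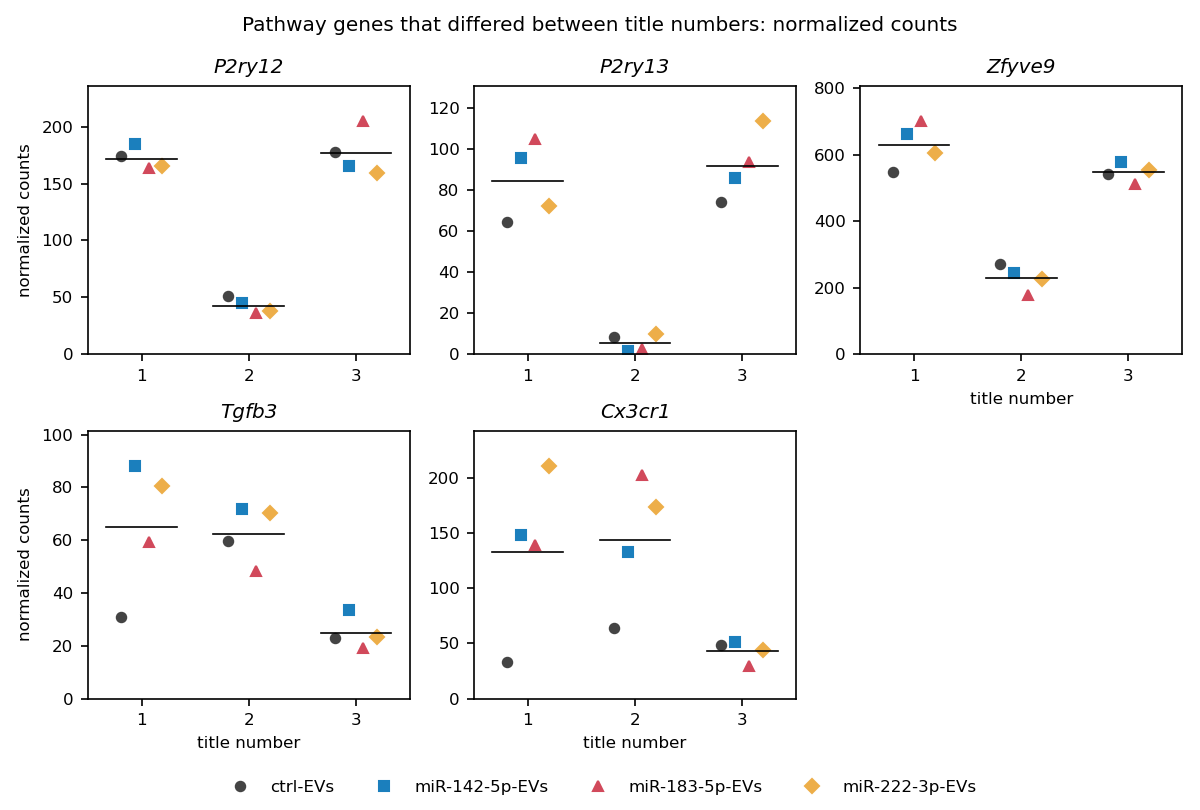
Normalized counts (axes from 0) of 5 pathway genes by title number, with 1 symbol for each group's library and a line at the mean of 4. P2ry12, P2ry13 and Zfyve9 are lowest in number 2, and Tgfb3 is at 19.0 to 33.6 in number 3.

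With each title number's mean taken out, the genes whose pattern over the 12 libraries was most like that of Tgfb1 were Ctsf (Pearson r = 0.895), Tmem250-ps (0.891) and Fkbp1a (0.890), among the 10856 genes averaging 50 normalized counts or more. This is a description of the same libraries, which share depth and composition.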

How the data were processed

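Per the study's methods, the authors prepared stranded poly(A) libraries, sequenced them as 151-nt read pairs and quantified the cDNA and ncRNA transcripts of Ensembl 90 with Salmon 0.8.2. The deposited values are estimated counts per transcript, not normalized, and TPM, which Salmon scales to 1 sum per library. Whether the strand was used is not stated, the names of the deposited files carry release 97 and not 90, and the notes name a human build although the identifiers are of mouse.

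Transcripts were matched to GENCODE vM21 (GRCm38; 116622 of 118783), summed to genes and rounded. The TPM-weighted effective length entered the fits as an offset. A gene entered the tests if 3 or more libraries held 10 or more counts of it. The tests were run in DESeq2 1.42.0 (R 4.3.3). Its Wald tests compared groups in 1 model of the 4 groups, and 1 model of groups and title numbers compared numbers. Alternatives were edgeR 4.0.16, the replicate block, other scaling, filters and offsets, and left-out libraries. Title numbers paired the libraries: deviations from group means correlated at 0.608 between same-numbered libraries (0.409 to 0.797 over 18 pairs).

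On simulated data both tools recovered known folds, and DESeq2's share of false calls was above its nominal rate, that of edgeR closer to it, which matters for calls that DESeq2 alone makes. Every member is described. Other pathway genes are named as the 3 with the largest change among those called, with a mean of at least 50 counts, in each comparison, apart from 1 that is not reported here. Members and lists were chosen with earlier results of these data known. Chromosome, start and end come from GENCODE, and 3′ UTR sites from its transcripts. Counting intervals and depth cover counting error only.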

Additional observations from a re-analysis of the deposited data

Results flagged for a closer look

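In 40 sets of libraries (the 10 genes in each title number and in the 9 miR-EV libraries), 1 value stood far from the others. Tgfbr1 in ctrl-EVs 3 was at 1433 normalized counts, while the 3 miR-EV libraries of number 3 were at 1807 to 1847, so that the gap took 0.904 of the range of the 4. Chance flags about 1 in 20 such sets.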

How the results depend on the processing

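Every alternative left all 10 genes uncalled against ctrl-EVs. The counts over all tested genes were 1, 0, 0, 0 and 1 for the groups in the order given in the report (miR-142-5p-EVs first), all miR-EVs and any difference among the groups. With the replicate block they were 8, 57, 9, 223 and 12, and with the block but no length offset 3, 33, 6, 155 and 4. edgeR called 0, with or without the block, and the fit of only the compared groups called 0 for miR-142-5p-EVs. Without the number 2 libraries (chosen after seeing the data) they were 2, 4, 3, 28 and 5, and with the block 27, 13, 21, 529 and 38. Leaving out 1 library gave 0 to 1, 0 to 1, 0 to 3 for all miR-EVs and 0 to 2 for any difference. It gave 1899 to 3763 genes and 1 to 4 of the 10 for number 3 against 1. The cause of these shifts was not tested. Without the length offset 8 of the 10 were called in number 3 against 2, to be read against 65.5% of all tested genes in that fit. Many treatment values changed sign. Of 40 log2 fold changes, 7 did so with the block, 13 without the length offset, 16 with both changes and 18 without ctrl-EVs 2. Among those 18, main values lay up to 1.11 SE from 0. Tgfbr1 with miR-222-3p was −0.029 with the block, −0.010 by edgeR, −0.041 by edgeR with the block, −0.0090 with the block and no offset, −0.0030 with no filter, −0.010 with TMM and −0.00088 with only the compared groups. Tgfbr2 with miR-142-5p was −0.011 without the offset and −0.017 with the block as well. Skil with miR-183-5p was −0.0010 with the block and no offset, and −0.020 with the block and without number 2. Without number 2 Smad7 over all miR-EVs was 0.24 (0.17 with the block) and Tgfb1 −0.094 (−0.10). Between numbers without the offset, Smad2 was 0.43 (2 against 1) and −0.46 (3 against 2), and Ski 0.024 (2 against 1). Leaving out 1 library gave Smad4 with miR-142-5p −0.019 to 0.29, Smad7 over all miR-EVs −0.75 to 0.35, Tgfb1 over all −0.13 to 0.14, Tgfbr1 with miR-222-3p −0.23 to 0.11, Tgfbr2 with miR-142-5p −0.077 to 0.19 and Skil with miR-183-5p −0.11 to 0.22. For number 3 against 1 it gave Tgfb1 −0.13 to 0.0095, Tgfbr2 −0.031 to 0.094 and Smad2 −0.14 to 0.0043, for 2 against 1 Tgfbr1 −0.14 to 0.0034 and Ski −0.041 to 0.047, and for 3 against 2 Smad3 −0.10 to 0.040. With 6-nt matches 2 of the 10 genes held a site for miR-222-3p and 6 for each other miRNA. Among 12562 genes with an annotated 3′ UTR, 28.8% held one for miR-222-3p, 35.4% for miR-142-5p and 32.0% for miR-183-5p. The 3′ UTRs searched in the 10 genes ran from 135 nt (Tgfb1) to 4154 nt (Tgfbr1), beside a median of 916 nt over those genes. The part of 3′ UTR length in these counts was not tested. Smad7 was at 24.03 to 123 normalized counts, and both depth and the length offset limit its values. Its ctrl-EVs 2 and 3 libraries held 59 and 64 estimated counts, at mean effective lengths of 1418 and 4080 nt.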
